A study of Mus musculus with 8 samples.

Results

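The nuclear genes of the mitochondrial respiratory chain and ATP synthase were followed in RAW264.7 cells, a mouse macrophage line, across 8 single-colour oligonucleotide arrays. Members were the genes whose names begin with Ndufa, Ndufb, Ndufc, Ndufs, Ndufv, Sdha, Sdhb, Sdhc, Sdhd, Uqcr, Cox4, Cox5, Cox6, Cox7, Cox8 or Atp5. The rule found 96 genes with 150 probes, of 37324 genes on the array. Of these, 92 had a probe well above background on at least 2 arrays, as had 20080 genes in all. The 92 comprised 36 subunits of complex I, 4 of complex II, 8 of complex III, 15 of complex IV, 15 of ATP synthase, 11 assembly factors and 3 further genes with an Atp5 name.

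In the melatonin arm, cells were pretreated with 1 mM melatonin for 1 h, after which 3 cultures were given Escherichia coli LPS (100 ng/ml), lasting 1, 3 or 5 h, and 1 culture received melatonin alone. In the arm without melatonin, cultures received LPS for the same times or nothing. Each of the 8 conditions has 1 array, so no condition has a replicate. A change at an LPS time therefore sets 2 arrays (1 per arm) against the 2 arrays without LPS, and the melatonin difference sets 4 arrays against 4. All 8 arrays lay on 1 slide, with 1 slide row per arm and 1 slide column per LPS time. Melatonin and slide row cannot be told apart, nor can LPS time, slide column and hours in culture. The treatment field of the labels gave 3 melatonin samples an LPS time 1 step later than their titles and the fourth none, so the titles were used. Tnf, which LPS induces, stood at 2.54, 6.79, 7.40 and 7.42 with melatonin and 2.73, 7.52, 8.48 and 8.13 without it at the titled 0, 1, 3 and 5 h, so both arrays titled without LPS were low. Of 9 macrophage markers, 8 passed the filter and Mertk was dim on all arrays. Among markers of other cells, Alb and Epcam failed the filter, Col1a1, Ms4a1 and Pecam1 lay between -6.26 and -2.61, and Cd3e lay between 0.26 and 0.71. At 5 h of LPS Cd14, the LPS co-receptor, rose by 2.13, Csf1r, the M-CSF receptor, changed by -1.46, and Pecam1 rose by 0.57 (adjusted p = 0.0281, lost under 7 of 15 alternatives). Il6, not well above background on either array without LPS, was at least 1610-fold higher at 5 h, with both those arrays set to the lowest signal well above background. Their part in the results was not tested.

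The respiratory chain passes electrons from NADH (complex I) or succinate (complex II) through ubiquinone, complex III and cytochrome c to oxygen at complex IV. Complexes I, III and IV pump protons, and ATP synthase uses the gradient to make ATP. Macrophages exposed to LPS are known for a shift toward glycolysis and for succinate oxidation at complex II that drives reactive oxygen production. A level below is a log2 processed signal minus the 75th percentile of that array, so 0 is the 75th percentile. A gene was called at a limma p under 0.05 after Benjamini-Hochberg adjustment over all genes. Such p reflects spread among these 8 arrays alone, which may be technical. With no replicates, that spread is how far the melatonin difference varied between LPS times. It therefore includes any real difference in the response of the arms. Because each level is an average over a culture, fewer cells expressing a gene and less of its RNA per cell cannot be told apart. Scaling within each array also hides a change in total RNA per cell.

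The members were bright. Their median level over the 8 arrays was 5.31, against -0.14 over all genes, and gene means ranged between -2.12 (Cox6b2) and 7.90 (Cox6a1). All 92 were well above background on 8 of 8 arrays. The 4 members that failed the filter were on 0 arrays: Ndufa4l2, a paralogue of Ndufa4 induced by hypoxia, and the tissue isoforms Cox7b2, Cox8b and Cox8c. Their levels lay between -6.80 and -4.21. The dimmest members that passed were Cox6b2, a testis isoform, and Cox6a2 (mean -1.71), the heart and muscle isoform. The assembly factors, which build the complexes but are not part of them, had a median level of 1.41. Between probes such levels are descriptions only, since probes differ in brightness.

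LPS moved the members little. At 1 h, 0 of 92 were called by limma (0 also at an unadjusted p under 0.05, and 0 under each alternative tried), beside 1.95% of all genes (1.67% raised), and their changes lay between -0.30 and 0.19. At 3 h, 14 rose and 1 fell, beside 33.7% of all genes called (18.6% raised and 15.1% lowered). At 5 h, 15 rose and 7 fell, beside 44.2% of all genes called (24.9% raised and 19.4% lowered). At 5 h 4 of 92 members changed by at least 0.5 log2, 4.35% of them, against 39.9% of all genes. The shares were 9.78% and 39.6% with quantile normalization, and 3.26% and 30.1% with normexp background correction. Members and all genes were not matched for brightness (median levels 5.31 and -0.14), and the part of brightness in this contrast was not tested. The median change of the members was 0.05 at 3 h and 0.04 at 5 h, against 0.06 and 0.08 over all genes.

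The direction of the small common shift depended on how the arrays were scaled. With quantile normalization in place of the 75th percentile, 2 members rose and 19 fell at 3 h, and 2 rose and 48 fell at 5 h. Of all genes 13.7% were then raised and 18.6% lowered at 3 h, and 17.9% and 23.5% at 5 h. The median of the members was then -0.15 at 3 h and -0.25 at 5 h, while the median over all genes was -0.02 and -0.01. In the deposited table, which the authors had quantile-normalized, 2 rose and 15 fell at 3 h and 2 rose and 39 fell at 5 h, beside 13.7% of all genes raised and 18.1% lowered at 3 h, and 17.8% and 23.1% at 5 h. A common rise or fall of the whole chain therefore has no settled direction here. Some calls were shared by all 3 scalings. The share of all genes called under all 3 scalings, or without single arrays, was not counted, so these numbers do not set the members apart. At 3 h Ndufaf1 and Ndufaf5 rose and Atp5sl fell. At 5 h Cox6a2 and Ndufaf5 rose, and Atp5sl, Ndufaf7, Ndufs7, Ndufv3, Sdha, Sdhd and Atp5c1-ps fell. Leaving out single arrays moved the number of calls at 3 h to between 0 (without the 3 h array without melatonin) and 15, and at 5 h to between 5 (without the 0 h array without melatonin) and 18.

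**Figure D1:**
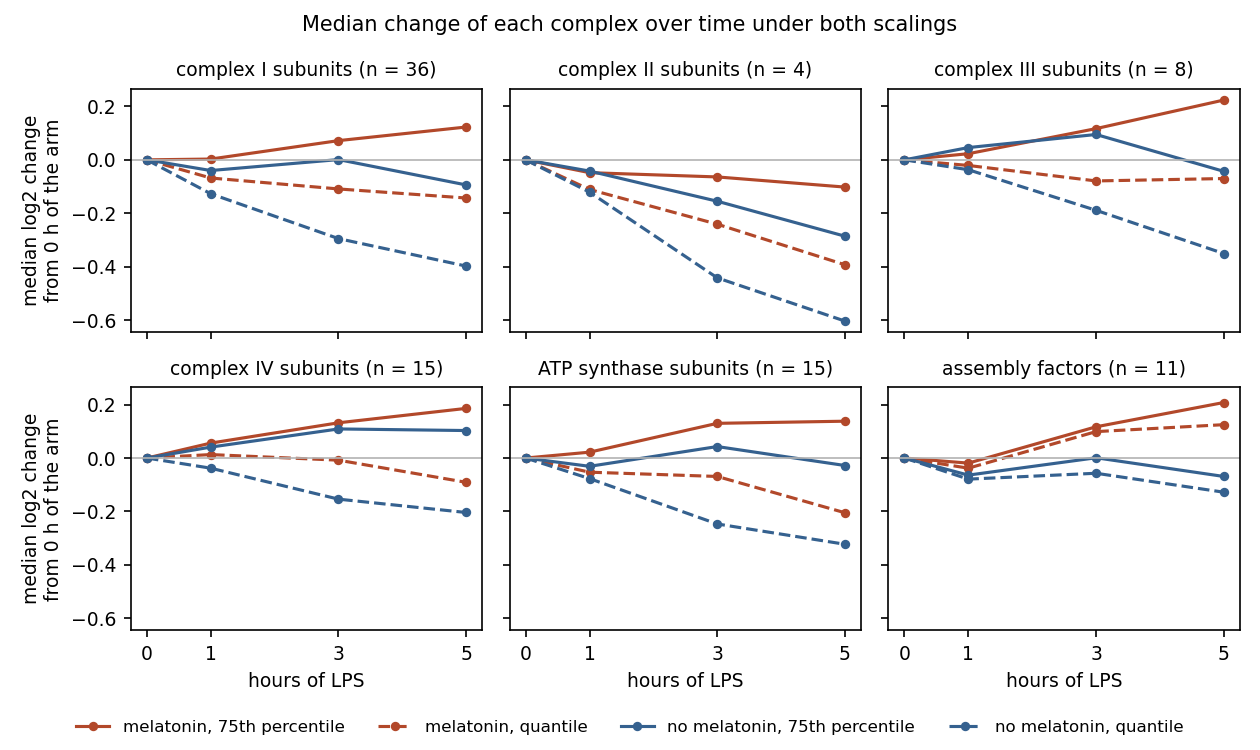
Median log2 change from the 0 h array of the same arm (vertical) against hours of LPS (horizontal) for the members of each complex. Red lines are the melatonin arm and blue lines the arm without melatonin, solid with 75th-percentile scaling and dashed with quantile normalization. At 5 h complex II lies lowest of the complexes under both scalings, at -0.10 with melatonin and -0.29 without it with the 75th percentile, and at -0.39 and -0.60 with quantile normalization.

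Complex II is succinate dehydrogenase, which oxidises succinate in the citric acid cycle and hands the electrons to ubiquinone. It has 4 subunits. Sdha, the flavoprotein that binds succinate, fell under all 3 scalings at 5 h. Sdha stood at 4.17, 4.05, 3.999 and 3.88 at 0, 1, 3 and 5 h with melatonin, against 4.45, 4.38, 4.24 and 4.13 without it. Both arms stepped down at each time, and the melatonin arm lay below the other at every time. The change at 5 h was -0.30 (SE 0.06, adjusted p = 0.0111). All 4 probes of Sdha were lower at 5 h, with changes of -0.30, -0.21, -0.10 and -0.46 from the brightest probe to the dimmest. Only the brightest was called by limma (adjusted p over all probes of 0.0102, 0.105, 0.566 and 0.0756 in that order).

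Sdhd, which with Sdhc anchors the complex in the inner membrane and forms the ubiquinone site, also fell at 5 h. Sdhd stood at 5.04, 4.97, 4.89 and 4.84 with melatonin, against 5.18, 5.06, 4.95 and 4.58 without it. Its 5 h level was below its 0 h level in both arms, and the 5 h array without melatonin was the lowest of the 8. The change at 5 h was -0.40 (SE 0.10, adjusted p = 0.0262). It was -0.20 with melatonin and -0.60 without, and leaving out the 5 h array without melatonin gave -0.22 (adjusted p = 0.0748). Sdhb, the iron-sulfur subunit, changed by -0.13 (SE 0.08, adjusted p = 0.214), and Sdhc by 0.04 (SE 0.08, adjusted p = 0.75), neither called with the 75th percentile. With quantile normalization Sdhb was called lower, at -0.45 (adjusted p = 0.0114), and Sdhc was at -0.14 (adjusted p = 0.213). Leaving out the 0 h array without melatonin gave an adjusted p of 0.0761 for Sdha and 0.162 for Sdhd. The Sdha call was also lost without the 0 h melatonin array (adjusted p = 0.0581) and without the 5 h array without melatonin (0.0539), and with the mean over probes (0.0725). The Sdhd call was lost with no filter (adjusted p = 0.0586) and with no intensity trend (0.0634).

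The deposited 60-base probes behind the Sdha and Sdhd levels are shown because each fall rests on them. That of Sdha lies at mm9 chr13:74460310-74460369 and that of Sdhd at chr9:50404630-50404689, both with descending coordinates.
Sdha probe: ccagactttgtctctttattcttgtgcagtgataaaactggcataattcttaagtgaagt
Sdhd probe: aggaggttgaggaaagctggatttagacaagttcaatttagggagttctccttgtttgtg

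Complex I oxidises NADH and has the most subunits of the chain. With the 75th percentile, 4 of its 36 subunits rose at 5 h and 2 fell, and its median change was 0.02. With quantile normalization 0 rose and 23 fell, and the median was -0.29. Beside these and the 5 h counts of complexes below stand 24.9% of all genes raised and 19.4% lowered, or 17.9% and 23.5% with quantile normalization. Both subunits that fell with the 75th percentile fell under the other scalings too. One was Ndufs7, the core subunit that holds the last iron-sulfur cluster before ubiquinone. Ndufs7 stood at 5.40, 5.40, 5.30 and 5.19 with melatonin, against 5.64, 5.71, 5.29 and 5.01 without it. The arm without melatonin held the highest and the lowest of the 8 levels. The change at 5 h was -0.42 (SE 0.13, adjusted p = 0.0393), and it was no longer called without the 0 h array without melatonin (-0.32, adjusted p = 0.214) or without the 5 h array of that arm (-0.24, adjusted p = 0.198).

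The other was Ndufv3, an accessory subunit of the NADH-binding arm, at -0.28 (SE 0.09, adjusted p = 0.039) for its brighter probe. The call was lost under 9 of 15 alternatives, and the change was -0.17 (adjusted p = 0.194) without the 5 h array without melatonin and -0.19 (adjusted p = 0.239) without the 0 h array of that arm. A second, dimmer probe of Ndufv3 changed by 0.26 at 5 h (adjusted p = 0.139 over all probes). The mean over both probes was -0.01 (adjusted p = 0.905), so the fall was seen on 1 of 2 probes. With no filter and with no intensity trend the adjusted p was 0.0886 and 0.0835 for Ndufs7, and 0.0865 and 0.097 for Ndufv3. The brighter probe lies at mm9 chr17:31668209-31668268 and the dimmer one upstream of it at chr17:31663758-31663817. Both are shown because they disagree.
Ndufv3 brighter probe: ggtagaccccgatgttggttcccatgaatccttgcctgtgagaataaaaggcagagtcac
Ndufv3 dimmer probe: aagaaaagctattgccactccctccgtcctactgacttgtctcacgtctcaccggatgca

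Ndufs4, an accessory subunit needed for a stable complex I, had the largest rise of its complex at 5 h. Ndufs4 stood at 3.65, 3.76, 3.98 and 4.05 with melatonin, against 3.80, 3.86, 4.03 and 4.15 without it. Each arm rose at every step, and both 5 h levels lay above both 0 h levels. The change was 0.37 (SE 0.06, adjusted p = 0.00644) at 5 h and 0.28 (SE 0.06, adjusted p = 0.0226) at 3 h. With quantile normalization the 5 h change was 0.14 (adjusted p = 0.164). Ndufa12 (0.25) and Ndufa7 (0.21) also rose at 5 h with the 75th percentile, whereas with quantile normalization Ndufa12 was at -0.06 and Ndufa7 at -0.11. Without the 5 h melatonin array Ndufa7 changed by 0.14 (adjusted p = 0.166). The core subunits Ndufs1, Ndufs3, Ndufs8, Ndufv1 and Ndufv2 changed by -0.17 to 0.04 at 5 h with the 75th percentile and were not called. With quantile normalization all 5 were called lower, at -0.32, -0.34, -0.27, -0.47 and -0.46.

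Complex III moves electrons from ubiquinol to cytochrome c. Uqcrq and Uqcrb, small subunits that cap the complex and line its ubiquinone site, rose at 3 and 5 h with the 75th percentile. Uqcrq stood at 7.05, 7.07, 7.28 and 7.44 with melatonin, against 7.18, 7.21, 7.38 and 7.48 without it. Uqcrb stood at 5.04, 5.20, 5.30 and 5.50 with melatonin, against 5.27, 5.36, 5.50 and 5.54 without it. For both genes each arm rose at every step. The changes at 5 h were 0.34 (SE 0.04, adjusted p = 0.00211) for Uqcrq and 0.36 (SE 0.06, adjusted p = 0.00667) for Uqcrb. With quantile normalization they were 0.07 (adjusted p = 0.386) and 0.05 (adjusted p = 0.554). The 3 core subunits Uqcrc1, Uqcrc2 and Uqcrfs1, the Rieske iron-sulfur protein, changed by 0.15, 0.14 and -0.06 at 5 h with the 75th percentile and were not called. With quantile normalization Uqcrc1 was at -0.16 and Uqcrc2 at -0.17, and Uqcrfs1 was called lower at -0.31 (adjusted p = 0.0166).

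Complex IV, cytochrome c oxidase, reduces oxygen to water. With the 75th percentile 5 of its 15 members rose at 5 h and 0 fell, and with quantile normalization 1 rose and 4 fell. Cox6a2, the heart and muscle isoform of a small subunit, rose under all 3 scalings. Cox6a2 stood at -1.80, -1.68, -1.48 and -1.15 with melatonin, against -2.06, -2.10, -1.80 and -1.64 without it. Both arms were highest at 5 h, and the melatonin arm was the higher at every time. The change at 5 h was 0.53 (SE 0.12, adjusted p = 0.0137), and the melatonin difference was 0.37 (SE 0.08, adjusted p = 0.0178). The widely expressed isoform Cox6a1 changed by 0.07 at 5 h (adjusted p = 0.339). Without the 0 h melatonin array the 5 h change of Cox6a2 was 0.46 (adjusted p = 0.0812), and the call was also lost without either the 5 h melatonin array (0.0683) or the 0 h array without melatonin (0.051), and with no filter (0.0542).

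The other isoforms of complex IV included no call at 5 h that held under all 3 scalings. Cox4i1, the common form of the subunit that senses the ATP to ADP ratio, changed by 0.21 (SE 0.04, adjusted p = 0.00944), and Cox4i2, the lung form induced by hypoxia, by 0.21 (SE 0.10, adjusted p = 0.138). With quantile normalization Cox4i1 was at -0.08. Cox7a2 changed by 0.26 (SE 0.05, adjusted p = 0.0121), the muscle form Cox7a1 by -0.24 (SE 0.10, adjusted p = 0.0953) and Cox7a2l, which joins complexes III and IV in supercomplexes, by -0.08 (SE 0.07, adjusted p = 0.382). With quantile normalization Cox7a2 was at -0.04 and Cox7a2l was called lower, at -0.42 (adjusted p = 0.00611).

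Ndufa4 was first assigned to complex I and is now placed in complex IV. It stood at 4.73, 4.83, 4.92 and 4.94 with melatonin, against 4.75, 4.80, 4.95 and 4.92 without it, and changed by 0.19 (SE 0.06, adjusted p = 0.0356) at 5 h. With quantile normalization that change was -0.12 (adjusted p = 0.12). AA467197, the mouse counterpart of human C15orf48, encodes a paralogue known to replace Ndufa4 in complex IV of inflamed cells, and it falls outside the naming rule. AA467197 stood at -4.08, -3.21, 0.14 and 1.70 with melatonin, against -5.56, -2.85, 1.33 and 2.83 without it. In each arm it rose at every step, and on 1 of the 8 arrays, that at 0 h without melatonin, it was not well above background. The change was 5.55 (SE 0.64, adjusted p = 0.00275) at 3 h and 7.08 (SE 0.64, adjusted p = 0.000873) at 5 h, and without single arrays it was 4.37 to 6.74 and 5.90 to 8.26. With the dim array set to the lowest signal well above background, the rise was at least 38.6-fold at 3 h and at least 112-fold at 5 h. The 5 h change was called under all 14 alternatives in which it could be fitted. The probe of each gene is shown because they mark the member that hardly moved and the paralogue that did. That of AA467197 lies at mm9 chr2:122466640-122466699 and that of Ndufa4 at chr6:11850423-11850482.
AA467197 probe: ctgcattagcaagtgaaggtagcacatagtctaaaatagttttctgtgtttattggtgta
Ndufa4 probe: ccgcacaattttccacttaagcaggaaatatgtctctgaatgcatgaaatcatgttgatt

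ATP synthase has a catalytic head (Atp5a1, Atp5b, Atp5c1), a stalk and a proton-conducting membrane ring (Atp5g1, Atp5g2, Atp5g3). With the 75th percentile 3 of its 15 subunits rose at 5 h and 0 fell, and with quantile normalization 0 rose and 11 fell. Atp5b, the catalytic beta subunit, changed by 0.15 (SE 0.03, adjusted p = 0.0153), and by -0.09 with quantile normalization. Atp5f1 and Atp5l, both of the stalk and membrane part, changed by 0.21 and 0.20, and by -0.12 and -0.09 with quantile normalization. Without the 5 h melatonin array Atp5l changed by 0.13 (adjusted p = 0.101). Atp5a1 and Atp5c1 changed by 0.05 and 0.01 and were not called at 5 h, whereas with quantile normalization both were called lower, at -0.26 (adjusted p = 0.00494) and -0.31 (adjusted p = 0.00413). The ring genes Atp5g1, Atp5g2 and Atp5g3 encode the same mature protein, and they changed by -0.04, -0.05 and 0.11, none called. With quantile normalization all 3 were called lower, at -0.38, -0.36 and -0.22. Of the 3 probes of Atp5g1, the dimmest, matched to an Ensembl transcript, changed by 0.56 (adjusted p = 0.00333 over all probes) with the 75th percentile, and the other two by -0.04 and -0.01.

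Of the 9 calls at 5 h shared by the 3 scalings, those of Atp5sl and Ndufaf5 held under every alternative tried. Atp5sl, whose current symbol is Dmac2 and whose product assists complex I assembly, had the largest change of any member at 3 and 5 h. Atp5sl stood at 2.68, 2.42, 1.99 and 1.90 with melatonin, against 2.64, 2.30, 1.40 and 1.43 without it. Both arms fell already at 1 h, and the 3 and 5 h levels of both arms lay below all 4 levels at 0 and 1 h. The change was -0.97 (SE 0.15, adjusted p = 0.00712) at 3 h and -0.996 (SE 0.15, adjusted p = 0.00447) at 5 h. The 5 h call held under all 15 alternatives, with a highest adjusted p of 0.0353, and the 3 h call under 14, being lost without the 3 h array without melatonin (-0.78, adjusted p = 0.0533). A second, dimmer probe changed by -0.83 at 5 h.

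Ndufaf5, which modifies Ndufs7 during the assembly of complex I, rose. Ndufaf5 stood at 1.001, 1.09, 1.43 and 1.60 with melatonin, against 1.12, 1.16, 1.69 and 1.86 without it. In both arms the levels at 3 and 5 h lay above those at 0 and 1 h. The change was 0.50 (SE 0.09, adjusted p = 0.0118) at 3 h and 0.67 (SE 0.09, adjusted p = 0.00335) at 5 h, and a second probe changed by 0.34 at 5 h. The 5 h call held under all 15 alternatives, with a highest adjusted p of 0.031. The 3 h call was lost without the no-melatonin array at 0 h (adjusted p = 0.0881) or at 3 h (0.087). Both probes of each gene are shown because they moved the same way. The Atp5sl probes lie at mm9 chr7:26410510-26410569 and chr7:26409949-26410008. The brighter Ndufaf5 probe spans a splice junction within chr2:140014595-140019324, and the dimmer one lies at chr2:139996598-139996657.
Atp5sl brighter probe: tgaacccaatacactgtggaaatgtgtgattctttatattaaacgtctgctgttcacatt
Atp5sl dimmer probe: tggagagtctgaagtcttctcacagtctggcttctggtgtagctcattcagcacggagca
Ndufaf5 brighter probe: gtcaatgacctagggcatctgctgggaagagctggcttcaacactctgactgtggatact
Ndufaf5 dimmer probe: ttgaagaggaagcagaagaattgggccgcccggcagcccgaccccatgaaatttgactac

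Ndufaf7, a methyltransferase that acts in complex I assembly, fell at 5 h over both arms. Ndufaf7 stood at 2.40, 2.35, 2.10 and 2.08 with melatonin, against 2.12, 1.94, 1.46 and 1.08 without it. The change at 5 h was -0.33 with melatonin and -1.04 without it, a difference that the melatonin by LPS term did not call (adjusted p = 0.908). Over both arms the change was -0.68 (SE 0.17, adjusted p = 0.0232), and without the 5 h array without melatonin it was -0.41 (adjusted p = 0.0952). Without the no-melatonin array at 0 h it was -0.48 (adjusted p = 0.143). Ndufaf1, part of the complex that assembles the membrane arm of complex I, peaked at 3 h in both arms. Ndufaf1 stood at 2.44, 2.62, 2.98 and 2.65 with melatonin, against 2.12, 2.31, 2.49 and 2.05 without it. The change was 0.46 (SE 0.10, adjusted p = 0.0197) at 3 h and 0.07 (SE 0.10, adjusted p = 0.608) at 5 h. The 3 h call was lost without any 1 of the 4 arrays at 0 and 3 h, with adjusted p between 0.0677 and 0.0993. Atp5c1-ps, a pseudogene close in sequence to Atp5c1, changed by -0.23 at 5 h, and its probe may also bind Atp5c1 transcripts.

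**Figure D2:**
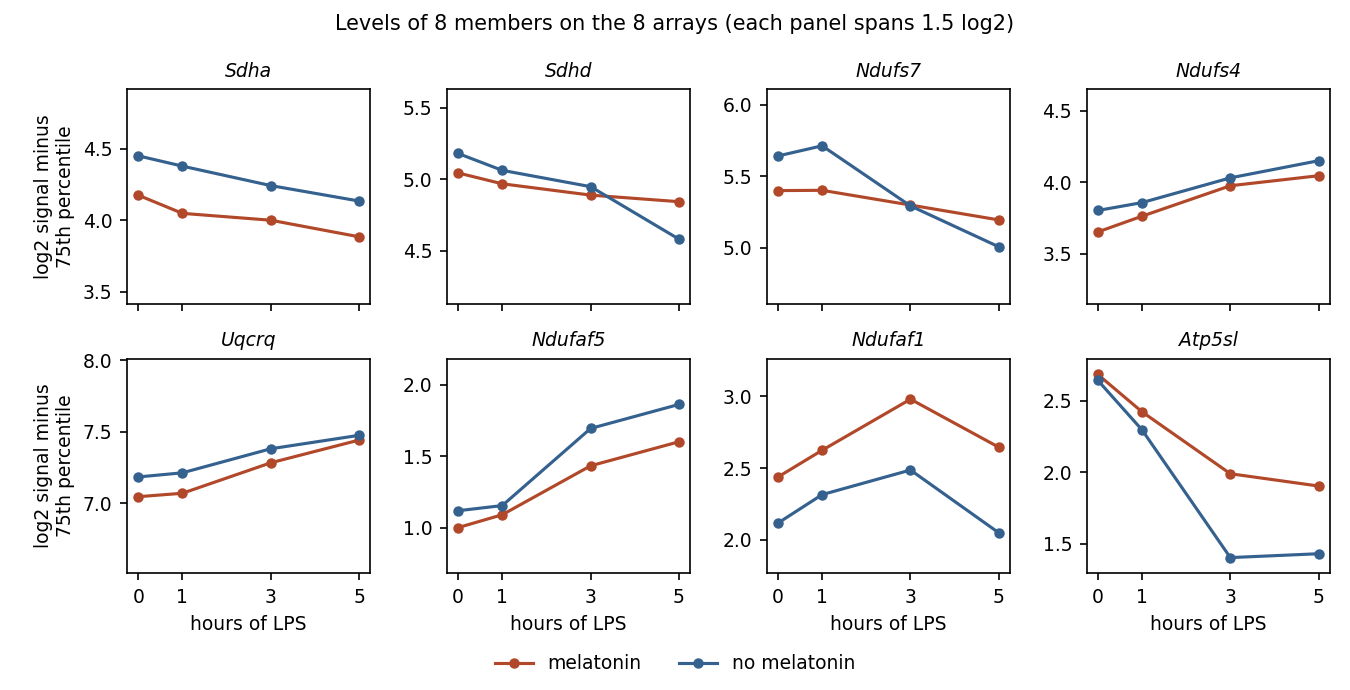
Level of 8 members (vertical, log2 processed signal minus the 75th percentile of the array) against hours of LPS (horizontal), with 1 array per point. Red is the melatonin arm and blue the arm without melatonin, and all panels span the same range. Atp5sl reaches 1.90 at 5 h with melatonin and 1.43 without it, and Ndufaf5 reaches 1.60 and 1.86.

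**Figure D3:**
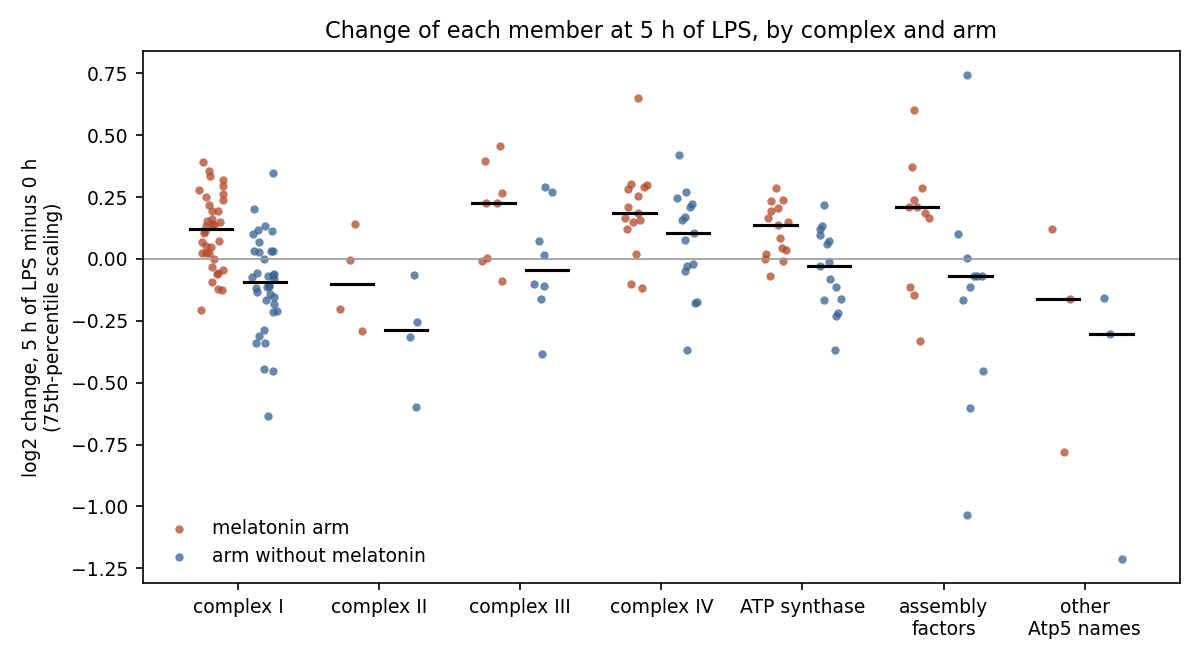
Log2 change of each member at 5 h of LPS from the 0 h array of its arm (vertical), by complex (horizontal). Red points are the melatonin arm and blue points the arm without melatonin, with a black bar at the median. Most points lie within 0.5 of 0, and the blue bars lie below the red ones in every column.

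Between the arms, changes of the members at 5 h correlated at r = 0.857 across 92 genes, which share slide columns and are not independent replicates. Over all genes r was 0.812. Of the members, 53 of 92 (57.6%) moved in the same direction in both arms, against 81.1% of all genes. The median change of the members in each arm was 0.14 with melatonin and -0.07 without it, so the medians differed in sign. With quantile normalization both medians were negative, at -0.12 with melatonin and -0.34 without it. Most members then fell in both arms, and in the fit over both arms 81 of 92 changes were below 0. The share of members moving in the same direction therefore depended on the scaling, and it was above 57.6% with quantile normalization. For all genes that share was not counted with quantile normalization. The contrast of 57.6% with 81.1% thus holds for the percentile scaling only and is not a trait of the members. Subtracting the median change of the 92 members from each member, within each arm, removes a shift that the members share. At 5 h, 33 members then lay above the median and 35 below it in both arms under all 3 scalings, and 24 were not on 1 side throughout. These values are descriptions, and no test was made of them.

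Relative to the chain's own median, complex II lay low. Its 4 subunits had a median of -0.25 with melatonin and -0.22 without it at 5 h with the 75th percentile, and -0.27 and -0.26 with quantile normalization. Sdha, Sdhb and Sdhd lay below the median of the members in both arms under all 3 scalings, and Sdhc did not. Complex IV lay at 0.04 and 0.17, and 10 of its 15 members were above the median in both arms under all 3 scalings and 3 below. The 17 genes listed as core subunits included all 4 of complex II and no member of complex IV. This list is therefore not separate from the split by complex. Of them 10 were below the median under all 3 scalings (among them Ndufs1, Ndufs7, Ndufv1, Sdha, Sdhb, Sdhd and Uqcrfs1) and 3 above (Atp5b, Uqcrc1 and Uqcrc2). Of the 61 other subunits 20 were below and 25 above. The mean of both arms ranged from -1.03 for Atp5sl to 0.63 for Ndufaf5.

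**Figure D4:**
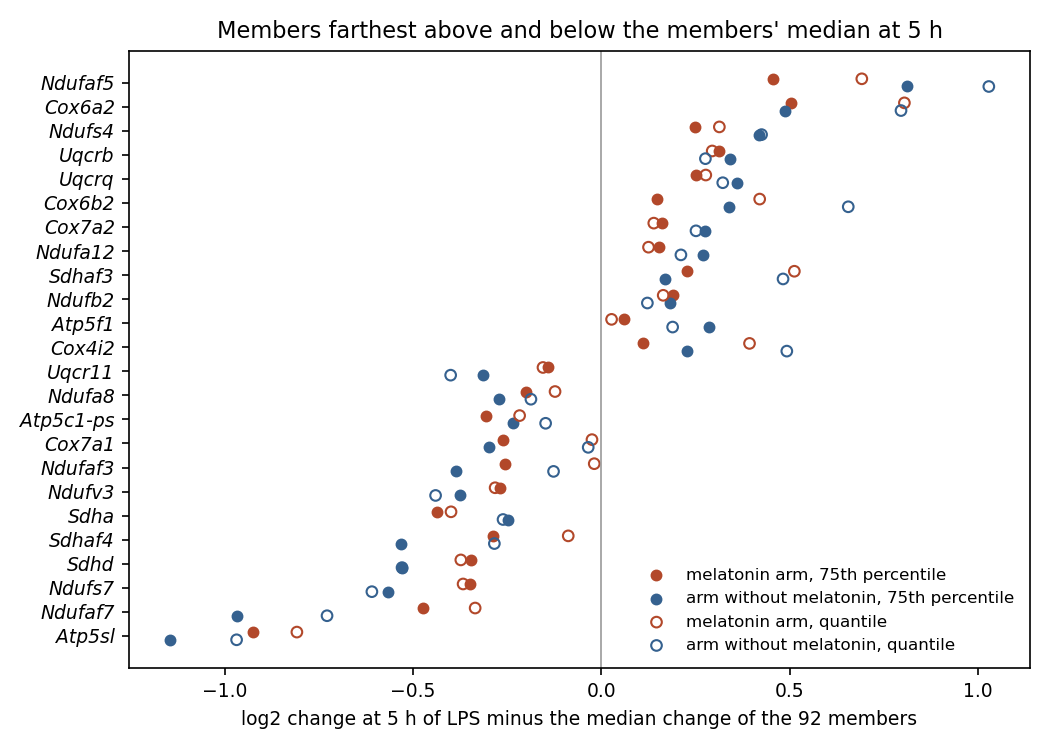
Log2 change at 5 h of LPS minus the median change of the 92 members in the same arm (horizontal) for the 12 members farthest below and the 12 farthest above it among those on 1 side in both arms under all 3 scalings. Red is the melatonin arm and blue the arm without melatonin, filled with the 75th percentile and open with quantile normalization. Sdha, Sdhd, Ndufs7, Ndufaf7 and Atp5sl lie left of 0 throughout, and Ndufs4, Uqcrb, Uqcrq and Ndufaf5 right of it.

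Melatonin at 1 mM is an antioxidant indole that enters mitochondria. With the 75th percentile 7 members were higher with melatonin and 42 lower, beside 40.6% of all genes called (15.3% raised and 25.3% lowered). The median difference was -0.14, against -0.10 over all genes. Of 8 measured macrophage markers 5 were lower with melatonin (median -0.41), and log2 of their summed signal was 9.62 to 9.79 with melatonin and 9.78 to 10.04 without it. Of 4 measured markers of other cells 2 were lower (median -0.28), with sums of 0.45 to 0.52 with melatonin and 0.77 to 0.90 without it. Cd3e made up most of these sums. With quantile normalization 3 of the 8 macrophage markers were lower (median -0.23), and 2 of the 4 other markers (median -0.28). Under that scaling 21 members were higher and 2 lower, and by the deposited values 21 were higher and 3 lower, with a median of 0.08 and 0.07. Beside these, 19% of all genes were raised and 17.1% lowered with quantile normalization, and 18.8% and 17.1% by the deposited values. Of the 49 calls, 9 held under all 3 scalings. Atp5s, Ndufaf7, Ndufaf1, Cox6a2, Sdhaf4, Sdhaf1 and Cox7a2l were higher with melatonin, and Cox6b2 and Ndufaf6 lower. These 9 comprised 5 of the 11 assembly factors, 3 of the 78 subunits and Atp5s. The share of all genes called under all 3 scalings, or with 1 array left out, was not counted. The median of the assembly factors was 0.075 with the 75th percentile and 0.104 with quantile normalization. That of the subunits was -0.148 and 0.077, so this count does not compare the response of the groups. Leaving out 1 array gave between 11 calls (without either 1 h array) and 50.

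With the 75th percentile the median melatonin difference of the subunits lay below 0 in each of the 5 complexes, between -0.21 (ATP synthase) and -0.11 (complex I). With quantile normalization it lay between 0.003 (complex II) and 0.14 (complex I). For ATP synthase 11 of 15 subunits were called lower with the 75th percentile and 0 of 15 with quantile normalization, beside 25.3% and 17.1% of all genes. Atp5b differed by -0.24 (SE 0.02, adjusted p = 0.0029), and by -0.05 with quantile normalization (adjusted p = 0.235). Ndufa9, an accessory subunit of complex I, differed by -0.35 (SE 0.05, adjusted p = 0.00557), and by -0.16 (adjusted p = 0.0538) with quantile normalization. Ndufb8 differed by -0.37 for its brighter probe, but a dimmer probe differed by 0.73 and the mean over both was 0.18 (adjusted p = 0.354).

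Atp5s, whose current symbol is Dmac2l and whose product is known as coupling factor B, had the largest melatonin difference of the members. Atp5s stood at -0.29, -0.19, -0.33 and -0.17 with melatonin, against -0.87, -0.68, -0.99 and -1.02 without it, so that all 4 melatonin arrays lay above all 4 others. The difference was 0.65 (SE 0.08, adjusted p = 0.00468), called under all 15 alternatives (highest adjusted p of 0.0265). For melatonin these are not 15 separate checks, since leaving out either array of a time gives almost the same fit. Ndufaf1 was higher with melatonin by 0.43 (SE 0.07, adjusted p = 0.00826), also called under all 15 (highest adjusted p of 0.0407), and at each time the melatonin array was the higher. For Ndufaf7 the difference was 0.58 (SE 0.12, adjusted p = 0.0156). It was 0.28, 0.42, 0.64 and 0.99 at 0, 1, 3 and 5 h, and was no longer called without either 3 h array (adjusted p = 0.0662 and 0.0663). Sdhaf1, which helps insert iron-sulfur clusters into Sdhb, differed by 0.33 (SE 0.07, adjusted p = 0.0151). Sdhaf4, which helps Sdha fold and join Sdhb, differed by 0.36 (SE 0.09, adjusted p = 0.0237). Cox6b2 differed by -0.39 (SE 0.08, adjusted p = 0.0154), with all 4 melatonin arrays below the others. Ndufaf6 differed by -0.29 (SE 0.08, adjusted p = 0.0284), and its 3 probes differed by -0.30, -0.27 and -0.91. Ndufaf6 kept its call under 8 of 15 alternatives (adjusted p up to 0.116 without single arrays) and Sdhaf1 under 11 (up to 0.0637). The calls of Sdhaf4, Cox6b2, Cox6a2 and Cox7a2l were each lost under at least 1 alternative, with a highest adjusted p of 0.0775, 0.0735, 0.0774 and 0.0904.

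**Figure D5:**
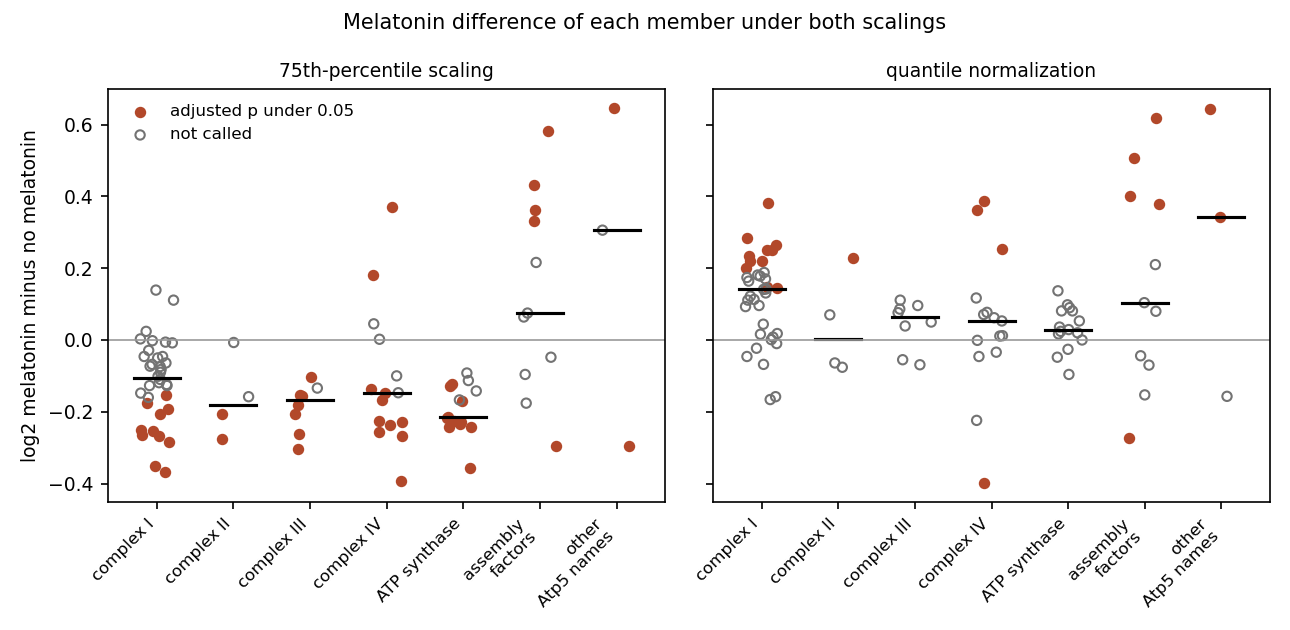
Log2 melatonin difference (vertical, melatonin minus no melatonin over 4 LPS times) of each member by complex (horizontal), with 75th-percentile scaling on the left and quantile normalization on the right. Filled red points have an adjusted p under 0.05, open grey points do not, and black bars are medians. The subunits shift from a median of -0.15 to 0.08 between the scalings, while 7 members stay called above 0 and 2 below in both.

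The median melatonin difference of the members was higher at each later LPS time under both scalings, a pattern described here and not tested. With the 75th percentile its median was -0.20, -0.17, -0.13 and -0.03 at 0, 1, 3 and 5 h, and with quantile normalization -0.01, 0.01, 0.13 and 0.20. The melatonin by LPS term, the mean difference at 1, 3 and 5 h minus that at 0 h, was above 0 for 79 of 92 members, with a median of 0.10, and for 10531 of 20079 genes in all. The median of the members was 0.046 without the 5 h array of either arm. For single genes limma called 0 of 92 members and 0% of all genes. At an unadjusted p under 0.05 the counts were 2 members and 754 genes, and under each alternative tried 0 members were called.

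Genes next to the members came from lists drawn up with earlier results of these data known. Their counts stand beside 24.9% of all genes raised and 19.4% lowered at 5 h, or 17.9% and 23.5% with quantile normalization. Of 11 measured subunits encoded by the mitochondrial genome, 1 rose and 3 fell at 5 h, and with quantile normalization 0 rose and 7 fell. COX2 rose by 0.16, and ND3 (-0.28), ND2 (-0.22) and CYTB (-0.15) fell, of which ND2 and CYTB were named after their values were seen. These 3 calls were lost under 6, 5 and 8 of 15 alternatives, and ND3 was at -0.17 (adjusted p = 0.127) without the 5 h array without melatonin. The COX2 change was -0.05 with quantile normalization, and the coordinates given for the ND3 probe are nuclear, on chromosome 1. Of 19 measured electron carriers and further entry points, 6 rose and 3 fell at 5 h, and with quantile normalization 5 rose and 6 fell. Cycs, cytochrome c itself, stood at 5.55, 5.74, 6.06 and 6.23 with melatonin, against 5.88, 6.04, 6.29 and 6.46 without it. It rose at every step in both arms, by 0.63 (SE 0.05, adjusted p = 0.000587) at 5 h, and was called under all 15 alternatives. Cyc1, the cytochrome c1 subunit of complex III that falls outside the naming rule, changed by 0.00 (SE 0.06, adjusted p = 0.996). The ubiquinone-binding paralogues Coq10b and Coq10a changed in opposite directions, by 1.69 (SE 0.14, adjusted p = 0.000675) and -1.10 (SE 0.18, adjusted p = 0.0054).

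Of 33 further assembly factors, 8 rose and 5 fell at 5 h, and with quantile normalization 7 rose and 9 fell. Of all genes 24.9% were raised and 19.4% lowered, and 17.9% and 23.5% with quantile normalization. Ttc19, needed for complex III, rose by 0.93 (SE 0.10, adjusted p = 0.00152), and Coa6, a copper-handling factor of complex IV, changed by -0.84 (SE 0.22, adjusted p = 0.0242). The Coa6 call was lost in 3 of 15 alternatives, with no filter and without the 0 h (-0.62, adjusted p = 0.147) or the 5 h array without melatonin (-0.53, adjusted p = 0.123). Among 7 partners of ATP synthase, the ADP/ATP carriers Slc25a4 and Slc25a5 changed by -0.33 (SE 0.06, adjusted p = 0.00687) and 0.17 (SE 0.05, adjusted p = 0.0422), and Slc25a5 was at -0.15 with quantile normalization.

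Promoters of respiratory genes are known for sites of the nuclear respiratory factors and YY1. RefSeq windows (GRCm38.p6) were found for 77 of the 92 members, 83 windows in all, not counting 1 chromosome, which holds Atp5a1 and Ndufa2 and was not used here, and the 250 bases before each start were searched on both strands. The palindromic NRF1 consensus was in 6.0% of these windows, against 0.8% of all 32851 windows. The GABPA letters CCGGAAG were in 18.1% against 6.9%, and the YY1 letters AANATGGC in 10.8% against 3.9%. The hypoxia response letters ACGTG were in 22.9% against 16.6%. Member windows were also richer in G and C, with a median of 57.2% against 52.4%, and a match is not evidence of binding. The windows of both complex II genes that fell and of AA467197 are shown, with every match in capitals. Those of Ndufs7, Ndufv3, Ndufaf5, Ndufs4 and Sdhb held no match to any of these letters and are not shown. Sdha (chr13:74350241-74350490, minus strand) holds ACGTG starting 125 bases before the start, and Sdhd (chr9:50603850-50604099, minus strand) holds CCGGAAG, on the opposite strand, from 46 bases before. AA467197 (chr2:122637637-122637886, plus strand) holds ACGTG on both strands at overlapping positions, from 82 and 81 bases before.
Sdha promoter: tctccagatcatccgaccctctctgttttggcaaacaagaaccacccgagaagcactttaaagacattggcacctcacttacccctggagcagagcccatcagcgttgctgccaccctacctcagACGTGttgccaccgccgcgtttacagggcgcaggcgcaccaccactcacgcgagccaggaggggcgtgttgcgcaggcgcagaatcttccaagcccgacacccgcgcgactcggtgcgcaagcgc
Sdhd promoter: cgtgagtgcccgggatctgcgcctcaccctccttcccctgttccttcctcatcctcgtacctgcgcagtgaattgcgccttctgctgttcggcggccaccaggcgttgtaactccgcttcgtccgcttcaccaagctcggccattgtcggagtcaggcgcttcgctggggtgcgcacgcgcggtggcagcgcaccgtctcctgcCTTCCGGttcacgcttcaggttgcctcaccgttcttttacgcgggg
AA467197 promoter: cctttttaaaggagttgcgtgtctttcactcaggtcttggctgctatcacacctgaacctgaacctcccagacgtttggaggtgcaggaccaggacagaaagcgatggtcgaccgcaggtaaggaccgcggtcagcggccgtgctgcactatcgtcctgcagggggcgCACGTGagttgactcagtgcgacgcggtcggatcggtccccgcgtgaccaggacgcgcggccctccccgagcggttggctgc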

How the data were processed

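RNA of 8 RAW264.7 cultures, 1 per condition, was measured on single-colour Agilent arrays. The deposited scanner files hold the intensity of each spot as processed signal, per the file headers of Agilent Feature Extraction 12.0.3.1, with background flags. The deposited table of the whole series holds log2 values, which had identical sorted values on every array, as quantile normalization gives.

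Each array was scaled as log2 of the processed signal minus its 75th percentile over non-control spots. The spots used for the percentile, and which of 5 rules combined the flags of replicate spots, were chosen by comparing gene counts with those of an earlier analysis. The rule kept, any spot that is no outlier, passed 20080 genes, the others between 20050 and 20083, and 92 members passed under each. Of 56605 probes, 32994 matched RefSeq by accession and 10314 had no symbol. The brightest passing probe stood for a gene, and probes had to be well above background on at least 2 arrays. LPS time and melatonin were fitted together as additive terms with limma 3.58.1 (R 4.3.3), with an intensity trend in the variance, and p-values were adjusted over all genes by Benjamini-Hochberg. The melatonin by LPS term came from a second fit. The number of arrays, 8, limits the precision. The fit was tested on simulated data.

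Members and lists were chosen with earlier results of these data known. Any member could be named, and those named by rule were the 2 largest called rises and falls per complex and time, the 5 largest melatonin calls in each direction, core subunits and isoform pairs. Outside them, AA467197, Cyc1, Cycs and the largest called rise and fall of each list at 5 h were named. Alternatives were quantile normalization, the deposited table, normexp with an offset of 50, no filter, a filter on all 8 arrays, the mean over probes, no intensity trend and leaving out each array. They are not independent checks. The deposited table was itself quantile-normalized, and the filter on all 8 arrays keeps the same 92 members. Leaving out either array of a time gives almost the same melatonin fit.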

Additional observations from a re-analysis of the deposited data

How the results depend on the processing

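The additive fit already matches the arms by LPS time, with 3 residual degrees of freedom, and with 1 array per condition no replicate number could be added. All arrays share a slide, which therefore could not be fitted as a block, and the melatonin by LPS term could not be fitted without either 0 h array. With no filter 4 members were called at 3 h (3 raised), 11 at 5 h (8 raised, 3 lowered) and 28 for melatonin (23 lowered). With no intensity trend the counts were 3 at 3 h (2 raised), 9 at 5 h (6 raised, 3 lowered) and 25 for melatonin (19 lowered). With normexp 2 were lowered at 3 h and 11 at 5 h, and with the mean over probes 2 were lowered at 3 h. Of all 20080 genes normexp gave 2997 lowered at 3 h and 3743 at 5 h. With no filter, no intensity trend or the mean over probes the share of all genes called was not counted. Those counts therefore do not show whether the members differ from other genes.

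With quantile normalization 2 were raised and 19 lowered at 3 h, 50 were called at 5 h (2 raised, 48 lowered) and 23 for melatonin (21 raised, 2 lowered). By the deposited values 2 were raised and 15 lowered at 3 h, 41 were called at 5 h (2 raised, 39 lowered) and 24 for melatonin (21 raised, 3 lowered). The members' medians at 1, 3 and 5 h and for melatonin were -0.071, -0.149, -0.248 and 0.080 with quantile normalization and -0.059, -0.131, -0.193 and 0.065 in the deposited table.

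Leaving out 1 array gave 0 to 0 calls at 1 h, 0 to 15 at 3 h (raised 0 to 13, lowered 0 to 2), 5 to 18 at 5 h (raised 4 to 14, lowered 1 to 11), 11 to 50 for melatonin (raised 2 to 7, lowered 8 to 45) and 0 to 0 for melatonin by LPS. Median ranges were -0.052 to 0.046, -0.006 to 0.100, -0.054 to 0.129, -0.182 to -0.119 and 0.046 to 0.130 in the same order. Leaving out an array also lowers the residual degrees of freedom for every gene. The share of all genes called was not counted without single arrays, so a drop in calls is not a trait of the members.

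Called genes named in the text or called at 5 h among the members reversed as follows, with the value under quantile normalization first and that in the deposited table after it. At 3 h these were Ndufa12 (-0.048, -0.022), Ndufa4 (-0.053, -0.062), Atp5f1 (-0.067, -0.027), Atp5a1 (-0.083, -0.034), Atp5b (-0.044, -0.026), Cox4i1 (-0.077, -0.024) and, with quantile normalization only, Cox7a2 (-0.020). At 5 h they were Ndufa12 (-0.064, -0.037), Ndufa7 (-0.106, -0.104), Cox6c (-0.130, -0.074), Atp5f1 (-0.124, -0.070), Atp5l (-0.093, -0.042), Atp5b (-0.090, -0.072), Cox4i1 (-0.080, -0.019), Ndufa4 (-0.118, -0.125), COX2 (-0.048, -0.055), Slc25a5 (-0.148, -0.100) and, with quantile normalization only, Cox7a2 (-0.037). For melatonin they were Atp5a1 (0.053, 0.025), Atp5g2 (0.098, 0.045), Cox4i1 (0.077, 0.023), Cox7a2 (0.071, 0.086), Ndufs8 (0.008, 0.018), Uqcrc1 (0.086, 0.099), Uqcrc2 (0.039, 0.054) and, in the deposited table only, Cyc1 (0.012). Ndufb8 was at 0.180 for melatonin with the mean over probes. The cause was not tested.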

Other observations

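Of 18 citric acid cycle genes measured, 3 rose and 3 fell at 5 h of LPS with the 75th percentile, and 2 rose and 8 fell with quantile normalization. The shares of all genes were 24.9% raised and 19.4% lowered, and 17.9% and 23.5% with quantile normalization. Dld, the lipoamide dehydrogenase shared by several dehydrogenase complexes, stood at 2.87, 2.96, 3.23 and 3.70 with melatonin, against 2.83, 2.98, 3.59 and 3.88 without it, and changed by 0.94 (SE 0.11, adjusted p = 0.002). Pdhx, a structural subunit of pyruvate dehydrogenase, changed by -0.68 (SE 0.11, adjusted p = 0.00463).

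Of 17 regulators of mitochondrial gene expression, 2 rose and 4 fell at 5 h, beside 24.9% of all genes raised and 19.4% lowered. Ppargc1b, a coactivator of mitochondrial biogenesis, stood at 1.32, 1.04, -0.05 and -0.35 with melatonin, against 1.69, 1.02, 0.22 and -0.19 without it, and changed by -1.78 (SE 0.12, adjusted p = 0.000438). Mterf3, a mitochondrial transcription and ribosome assembly factor, changed by 0.60 (SE 0.09, adjusted p = 0.00473). Ppargc1a and Mterf2 were not well above background on enough arrays. Of 7 mitochondrial genes linked to LPS, 3 rose and 1 fell. Acod1, which makes itaconate, an inhibitor of complex II, changed by 5.15 (SE 0.18, adjusted p = 0.00011), and Pdk1, a kinase of pyruvate dehydrogenase, by -0.81 (SE 0.09, adjusted p = 0.00169).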
